A study of Mus musculus with 24 samples.

Results

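The genes described here encode subunits of the receptors for glutamate, GABA and glycine, the main fast transmitters of the cerebellum. They were taken by symbol from the array annotation, as every gene named Gria, Grik, Grin, Grm, Gabr, Gabbr, Glra or Glrb with its usual number or letter, without Gabra6, Gabrd and Grin2c. That gave 29 of the 12394 genes measured with a single symbol. They fall into 4 AMPA receptor genes (Gria1 to Gria4), 4 kainate receptor genes (Grik1, Grik2, Grik3 and Grik5), 4 NMDA receptor genes (Grin2a, Grin2b, Grin2d and Grin3b) and 1 metabotropic glutamate receptor gene (Grm8). The others are 11 GABA-A genes (Gabra2, Gabra3, Gabrb1, Gabrb2, Gabre, Gabrg1, Gabrg3, Gabrp, Gabrq, Gabrr1 and Gabrr2), 1 GABA-B gene (Gabbr1) and 4 glycine receptor genes (Glra1, Glra3, Glra4 and Glrb).

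The study measured RNA from mouse medulloblastoma, a tumor of the cerebellum that arises from granule neuron precursors, on 24 Affymetrix arrays. SMB21, SMB55 and SMB56 are cell lines from spontaneous tumors of Ptch+/- mice, grown as neurospheres without serum and labelled Ptch1 mutant throughout. RAS denotes RAS transformed SMB cells (7 arrays, with 3 from SMB21 and 2 from each other line); the labels do not say which RAS or how it was introduced. GF denotes SMB cells kept for more than 3 weeks in EGF at 20 ng/mL, bFGF at 20 ng/mL and 0.2% heparin (3 arrays, 1 per line). Parental SMB cells lack these additions (8 arrays, with 4 from SMB21 and 2 from each other line). Primary MB denotes tumors of adult Ptch1 mutant mice (3 arrays), set against wild-type cerebellum of adult mice (1 array) and of postnatal day 6, P6 (2 arrays). For P6 replicate 2 the labelled age conflicts with the title, which was followed. The labels call replicates biological without saying which animals or cultures they came from, so p-values measure the spread between these samples, which may be technical. The 3 lines are the only cell sources in the cultures.

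Ionotropic glutamate receptors are cation channels built of several subunits that excite the cell, in contrast to GABA-A and glycine receptors, chloride channels that inhibit most mature neurons. GABA-B and metabotropic glutamate receptors act through G proteins. In the cerebellum, AMPA and GABA-A receptors carry transmission onto granule neurons and Purkinje cells, and Bergmann glia carry AMPA receptors as well. Immature precursors meet GABA and glutamate before synapses form.

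Several of these genes lie next to each other in the genome, and 2 such pairs hold Glrb and Gabra2, whose responses differed between the SMB lines. Gria2 and Glrb are neighbouring protein-coding genes on chromosome 3, and Gabrg1 and Gabra2 on chromosome 5. Their promoters, from 250 bases before to 50 after the annotated start, are shown because both members of a pair can be followed below. They are RefSeq sequences of build GRCm38.p6, read 5′ to 3′ on the minus strand, where all 4 genes lie, at chr3:80802786-80803085 (Gria2), chr3:80913611-80913910 (Glrb), chr5:71095800-71096099 (Gabra2) and chr5:70842568-70842867 (Gabrg1). Capitals mark matches on either strand to the E-box CAGNTG, bound by proneural factors such as Atoh1, and to the right arm GGACAG of RE1, the site of the neuronal gene repressor REST, printed as CTGTCC where the match is on the opposite strand.
Gria2: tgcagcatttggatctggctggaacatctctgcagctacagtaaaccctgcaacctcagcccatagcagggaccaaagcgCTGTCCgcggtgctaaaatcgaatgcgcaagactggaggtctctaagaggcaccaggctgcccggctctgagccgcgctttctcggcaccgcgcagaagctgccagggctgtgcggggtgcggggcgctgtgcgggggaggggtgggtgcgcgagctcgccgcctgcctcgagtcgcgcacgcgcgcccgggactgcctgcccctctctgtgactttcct
Glrb: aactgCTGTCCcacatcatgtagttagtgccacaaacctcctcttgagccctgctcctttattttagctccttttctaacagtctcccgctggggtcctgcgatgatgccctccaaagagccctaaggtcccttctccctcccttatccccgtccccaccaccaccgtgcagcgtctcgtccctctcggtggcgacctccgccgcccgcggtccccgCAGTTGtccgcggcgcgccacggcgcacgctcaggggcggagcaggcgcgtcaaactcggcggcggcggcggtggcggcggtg
Gabra2: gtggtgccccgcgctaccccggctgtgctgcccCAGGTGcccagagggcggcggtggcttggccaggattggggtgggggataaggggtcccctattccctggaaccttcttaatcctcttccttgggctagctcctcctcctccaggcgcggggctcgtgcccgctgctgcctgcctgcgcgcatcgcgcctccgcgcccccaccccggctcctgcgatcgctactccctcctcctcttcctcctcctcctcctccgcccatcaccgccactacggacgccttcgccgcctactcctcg
Gabrg1: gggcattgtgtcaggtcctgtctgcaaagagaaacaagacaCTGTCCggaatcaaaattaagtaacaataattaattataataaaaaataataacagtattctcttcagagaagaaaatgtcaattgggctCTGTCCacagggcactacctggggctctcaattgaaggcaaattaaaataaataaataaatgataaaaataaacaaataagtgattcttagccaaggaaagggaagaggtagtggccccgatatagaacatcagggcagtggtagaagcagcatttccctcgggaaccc
Glrb and Gabra2 each held 1 E-box, as did 51.4% of 32851 promoters of this length. The right arm of RE1 stood once in Gria2, once in Glrb and at 2 places in Gabrg1, and in 22.2% of all promoters. The left arm, TTCAGCACC, was in 0.371% of all promoters and, letter for letter, in none of these 4. Near matches were not searched for. In Gria2, on the strand that reads GGACAG, the stretch ending 2 bases before it differs from the left arm at 1 letter. How often other promoters hold such a near match was not tested. The exact matches overlapped no other. GC content was 65.7% in Gria2 and in Glrb, 70.0% in Gabra2 and 38.3% in Gabrg1. Such matches describe letters and not bound sites. In all, 23 of the 29 genes had a promoter in the table.

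Levels are given as log2 of the deposited intensity plus 16, for the probe set of each gene with the highest mean over the 24 arrays, and differences are differences of such values. Probe sets differ in brightness, so levels place a gene on the array's own scale and do not rank genes against each other. The median of the gene means was 8.37, and single values of all genes went down to 4.72. On that scale 11 receptor genes reached the median on at least 1 array: Gabbr1, Gabra2, Gabrb1, Gabrg1, Glrb, Gria1 to Gria4, Grik2 and Grik5. The other 18 stayed below it on every array, with a highest value of 7.98 for Grik1 in the adult cerebellum, and the added 16 compresses the changes of such dim genes. A gene was called changed at an adjusted p under 0.05 (limma, Benjamini-Hochberg over the 12394 genes). Of the 29 genes, 18 were called in at least 1 of 8 comparisons between groups. The other 11 were called in none: Gabra3, Gabre, Gabrg3, Gabrq, Gabrr1, Glra1, Glra3, Glra4, Grik3, Grik5 and Grin2b. How many of all genes were called at least once was not counted, so the 18 cannot be set against a background. Each of the 8 comparisons alone called 8.95% to 32.1% of all genes.

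**Figure D1:**
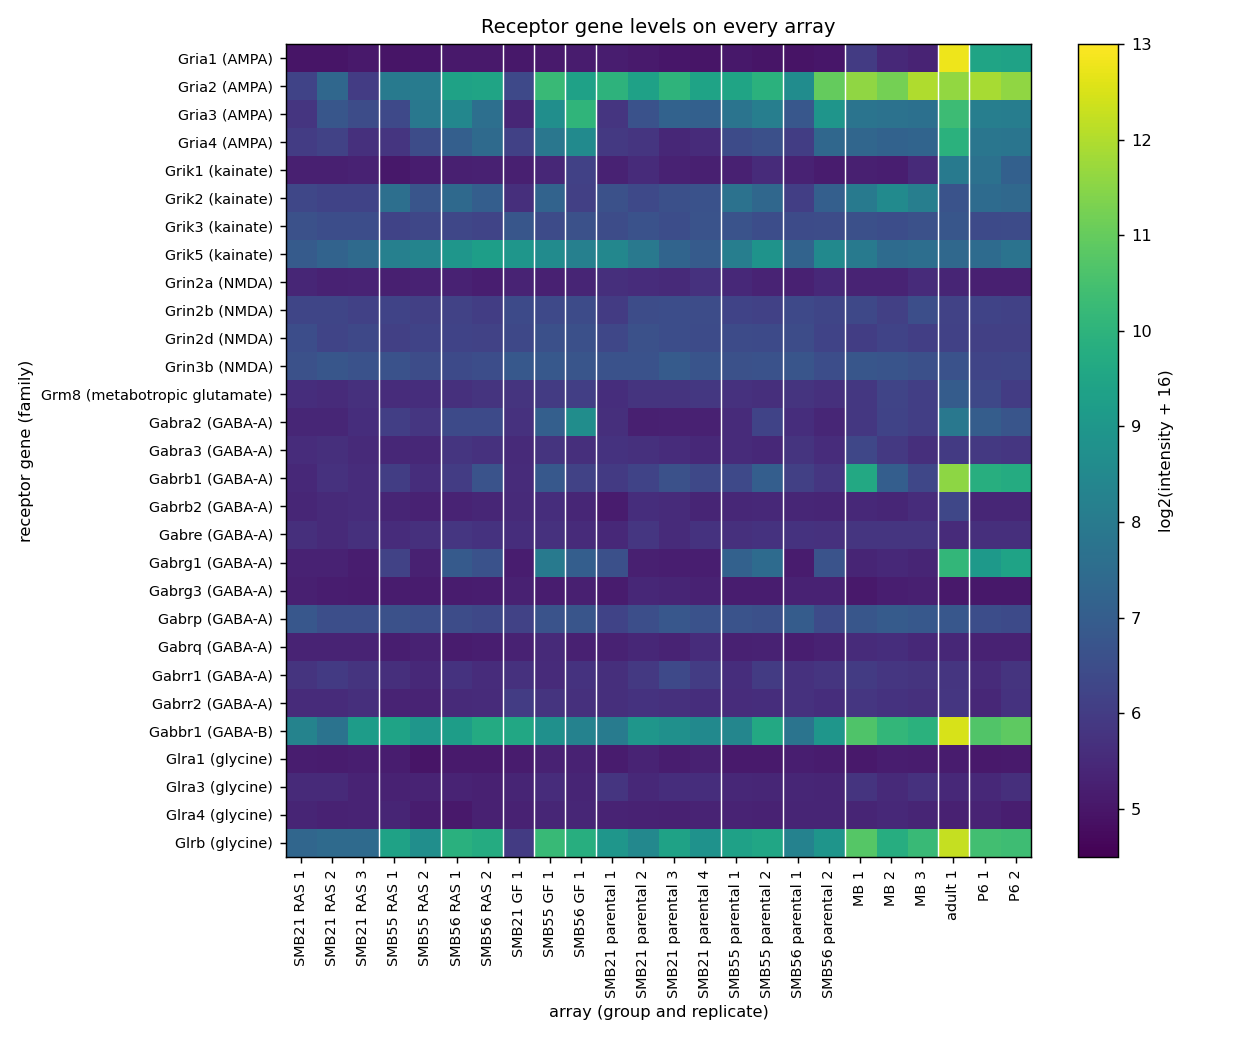
Level of each of the 29 receptor genes (rows, with their family) on each of the 24 arrays (columns), as log2(intensity + 16) on the colour scale. White lines part the groups, from RAS, GF and parental SMB cells by line on the left to MB, adult and P6 tissue on the right; Gria1 is bright in adult (12.80) and P6 tissue (9.46 and 9.41) and near the lowest values in every culture.

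Some arrays stood apart. SMB56 parental replicates 1 and 2 correlated at 0.944 over all genes, the lowest value between replicates of a group. Oligodendrocyte lineage markers (9 genes measured) summed to an intensity of 33160 in SMB56 parental replicate 2 and 2400 in replicate 1, and astrocyte markers (9 genes) to 22290 and 2403. In SMB55 parental cells the oligodendrocyte sums were 32580 in replicate 2 and 14470 in replicate 1, and the astrocyte sums 17990 and 4647. The astrocyte sums did not speak for the whole list. In both lines Aldoc (13.94 against 7.47 in SMB56), S100b and Slc1a3 were higher in replicate 2. Slc1a2, Gdf10 (6.51 against 8.37 in SMB56) and Gfap were lower there, and Gja1, Aqp4 and Aldh1l1 went opposite ways in the lines. In SMB21 parental cells the oligodendrocyte sum was 11990 in replicate 1 and 3361 to 6181 in the others. Olig1 was 13.35 in that replicate and 5.72 to 6.13 in the others. The sum did not speak for the whole list here either. Olig2, Cspg4, Mbp and Mobp were also higher in that replicate. Pdgfra (9.99 against 11.45 to 12.48), Sox10 (7.27 against 7.71 to 7.99) and Mag were lower there, and Mog was no higher. MB replicate 1 held more of the mature granule neuron marker Gabra6 (12.60) than MB replicates 2 and 3 (5.89 and 9.10). Fits were made without MB replicate 1 and without parental replicate 2 of SMB55 or of SMB56. For these parental arrays in the tissue comparisons this was a choice made after seeing the data. Values of these fits stand below where a call was lost or where the result is a main one. Some gained calls are named only here. Without MB replicate 1 these were Gabrb1 in MB and in adult against P6, and Grm8 in parental SMB against P6. Without SMB56 parental replicate 2 they were Grin2d in parental SMB against P6, Gabrb1 in RAS against parental cells and Gria2 in the GF response by line. SMB21 parental replicate 1 was left out singly in the culture comparisons only. In the tissue comparisons, leaving out an array or line outside the groups compared left the difference unchanged. It altered only the spread estimated over all groups, and so the p-values. The arrays measured mixed tissue or whole cultures, in which fewer cells of a type and less RNA per cell cannot be told apart.

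Primary tumors differed from P6 cerebellum mainly by lower Gria1, Gabrg1 and Grik1, while the differences of Gria2, Gria3 and Gria4 were -0.14, -0.41 and -0.58 and not called. Of the 29 genes, 2 were higher and 4 lower in primary MB than in P6 cerebellum, 20.7% of them against 11% of all genes (4.3% higher and 6.68% lower). The median difference was 0.08 over the 29 genes and 0.05 over all genes. Against the adult cerebellum 1 gene was higher in tumors and 11 were lower, 41.4% against a background of 30.9% (15.2% higher and 15.7% lower), with a median of -0.02 for the 29 genes and 0.03 for all genes. In the adult cerebellum itself 8 genes were higher than at P6 and 0 lower, 27.6% against 19.2% (8.85% higher and 10.3% lower), with medians of 0.27 and 0.03. At an unadjusted p under 0.05 limma found 12 higher and 0 lower in adult tissue, but the share of all genes at that threshold was not counted. The adult group is 1 array, whose spread was assumed to be that of the other groups.

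Parental SMB cells were below primary MB for Gria2, Gabbr1, Grik2, Glrb and Gria4. Of the 29 genes, 1 was higher and 5 lower in parental SMB cells than in tumors, 20.7% against 20.6% of all genes (12.4% higher and 8.19% lower), with medians of -0.12 and 0.03. Centring the arrays on their medians gave 0 higher and 13 lower, with 27.3% of all genes called and a median of -0.18 over all genes. Without SMB56 parental replicate 2 the same 6 genes were called (15.2% of all genes), and without SMB55 parental replicate 2 Gabra2 joined them (17.5%). Without MB replicate 1 there were 3 (Gria2, Gabbr1 and Grik2; 13.4% of all genes). Microglia markers (8 genes) summed to 241.3 to 305.2 in parental SMB cells, against 9146 to 15390 in MB, with 8 of 8 lower. Granule neuron precursor markers (6 genes) summed to 14960 to 27460 in parental cells, against 42080 to 46510 in MB, with 2 of 6 lower. Endothelial markers (5 genes) had 2 lower. The part of these cell types in the differences was not tested. Against P6 cerebellum 1 gene was higher and 9 were lower in parental SMB cells, 34.5% against 25.6% (14.6% higher and 11% lower), with a median of 0.00 over the 29 genes and 0.08 over all genes. These tissue comparisons share groups with each other, so their counts are not independent.

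**Figure D2:**
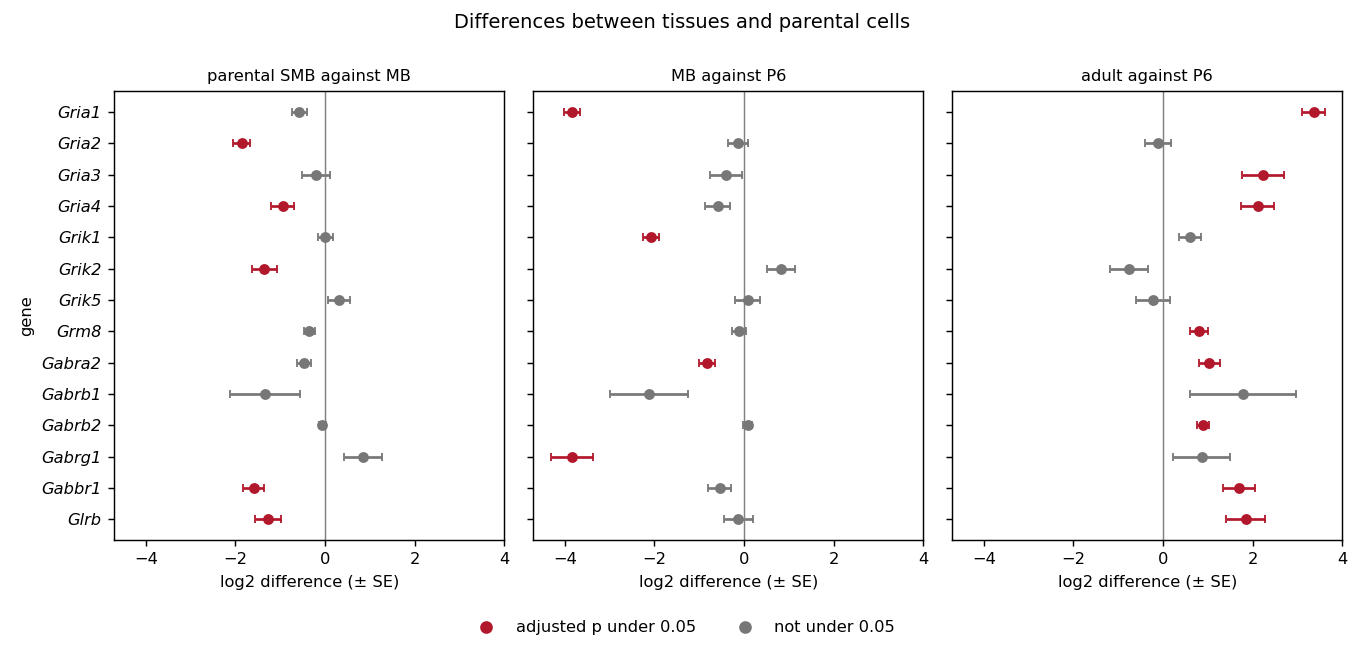
Log2 difference (horizontal axis, point with SE) of 14 receptor genes in parental SMB cells minus primary MB (left), primary MB minus P6 (middle) and adult minus P6 cerebellum (right). Red points have an adjusted p under 0.05; Gria1 lies at -3.84 in the middle panel and 3.36 in the right one, and Gria2 moves only in the left panel, to -1.86.

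Gria1 encodes the GluA1 subunit of the AMPA receptor, which the cerebellum is known to carry in Purkinje cells and Bergmann glia. Its level was 5.98, 5.49 and 5.33 in primary MB, against 12.80 in the adult cerebellum and 9.46 and 9.41 in P6 cerebella. The tumors lay below each normal cerebellum, by -3.84 against P6 (SE 0.19, adjusted p = 5.43e-05 with limma) and by -7.20 against adult (SE 0.23, adjusted p = 4.64e-06). Adult was 3.36 above P6 (SE 0.25, adjusted p = 0.000216). In parental SMB cells Gria1 had a lowest value of 4.94, a median of 5.02 and a highest of 5.19, all below the tumors (-0.57, SE 0.17, adjusted p = 0.0507) and below P6 (difference -4.41, SE 0.19, adjusted p = 1.87e-05). RAS cells (4.97 to 5.08) and GF cells (5.04, 5.12 and 5.14) stayed at the same low signal. Its other probe set fell as well in MB against P6 (-3.10, SE 0.19). Without MB replicate 1 the MB against P6 difference was -4.03 for Gria1 (adjusted p = 5.44e-05), -3.82 for Gabrg1 (adjusted p = 0.0144) and -2.03 for Grik1 (adjusted p = 0.0042).

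Purkinje cell markers (5 genes) summed to 567.6 to 2041 in primary MB, against 86330 in adult and 24490 to 25150 in P6 cerebellum, and 3 of 5 were lower in MB than at P6. Astrocyte and Bergmann glia markers summed to 3358 to 4516 in MB, against 85090 in adult and 32640 to 35380 in P6 tissue, with 5 of 9 lower and 1 higher in MB than at P6. Interneuron markers (4 genes) summed to 156.3 to 200.3 in MB, against 15150 in adult and 3195 to 3750 at P6. Of the 4, 2 were lower in MB than at P6 (Gad1 and Gad2), and Slc32a1 and Slc6a5 were not called. The part of these cell types in the differences of Gria1, Gabrg1, Gabrb1 and Grik1 between tumor and normal tissue was not tested.

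Gria2 encodes GluA2, the subunit whose edited form keeps calcium out of AMPA receptors. It overlapped between tumor and P6 tissue, with 11.57, 11.23 and 11.99 in primary MB, 11.62 in the adult cerebellum and 11.89 and 11.58 at P6 (MB minus P6 -0.14, SE 0.22, adjusted p = 0.724). Its line means in parental SMB cells were 9.71 (SMB21), 9.70 (SMB55) and 9.81 (SMB56). Each parental array lay below each tumor, and the difference was -1.86 (SE 0.20, adjusted p = 0.002). A separate Gria2 probe set gave -2.05 (SE 0.28, adjusted p = 0.00534) for the same comparison.

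Gria3 and Gria4 encode GluA3 and GluA4. Gria3 was 7.77, 7.70 and 7.65 in primary MB, against 10.34 in adult and 8.14 and 8.09 in P6 cerebellum, and the adult array stood above all others of the tissues. The difference was -2.63 for MB against adult (SE 0.45, adjusted p = 0.00485) and 2.23 for adult against P6 (SE 0.48, adjusted p = 0.0194), of which the second was lost when P6 replicate 1 (adjusted p = 0.0803) or P6 replicate 2 (adjusted p = 0.0842) was left out. Gria4 was 7.31, 7.17 and 7.24 in MB, against 9.94 in adult and 7.85 and 7.80 at P6. It was 2.12 higher in adult than at P6 (SE 0.37, adjusted p = 0.009) and differed by -2.70 in MB against adult (SE 0.35, adjusted p = 0.00151). Line means of Gria4 in parental SMB cells were 5.68, 6.51 and 6.69, with SMB56 parental replicate 2 (7.33) above the 3 tumors and every other parental array below them, and differed by -0.95 from MB (SE 0.25, adjusted p = 0.0374) and by -1.53 from P6 (SE 0.28, adjusted p = 0.0092). The call against MB was lost without any one of the 3 tumors or of the 2 P6 arrays, with adjusted p-values up to 0.0965. That against P6 was lost without P6 replicate 1 (adjusted p = 0.0724) or 2 (adjusted p = 0.0676).

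Among kainate receptor genes, Grik1, which encodes the pore-forming subunit GluK1, was lower in tumors than in normal cerebellum, and Grik2, which encodes GluK2, was higher in tumors than in the adult cerebellum. Grik1 was 5.23, 5.20 and 5.52 in primary MB, against 7.98 in adult and 7.67 and 7.12 in P6 cerebellum. The tumors lay below each normal tissue (MB minus P6 -2.07, SE 0.18, adjusted p = 0.000834; MB minus adult -2.67, SE 0.23, adjusted p = 0.000254). In parental SMB cells Grik1 was at 5.15 to 5.56 with a median of 5.30, and differed from P6 by -2.06 (SE 0.18, adjusted p = 0.000548). Grik2 was 7.99, 8.58 and 8.14 in MB, against 6.66 in adult and 7.47 and 7.36 at P6. It was the single member higher in MB than in adult tissue (1.58, SE 0.40, adjusted p = 0.0244, but 0.0504 without MB replicate 3 and 0.0603 without SMB56 parental replicate 2). Its difference from P6 was 0.82 (SE 0.32, adjusted p = 0.147). Line means of Grik2 in parental SMB cells were 6.55, 7.52 and 6.58, below MB by a difference of -1.36 (SE 0.29, adjusted p = 0.0189). Without MB replicate 3 (adjusted p = 0.0504) or line SMB56 (adjusted p = 0.06) that call was lost. Grik3 and Grik5, whose subunit GluK5 joins others to form high-affinity receptors, were called in no comparison. Grik5 had a range of 6.96 to 8.87 in parental cells alone.

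**Figure D3:**
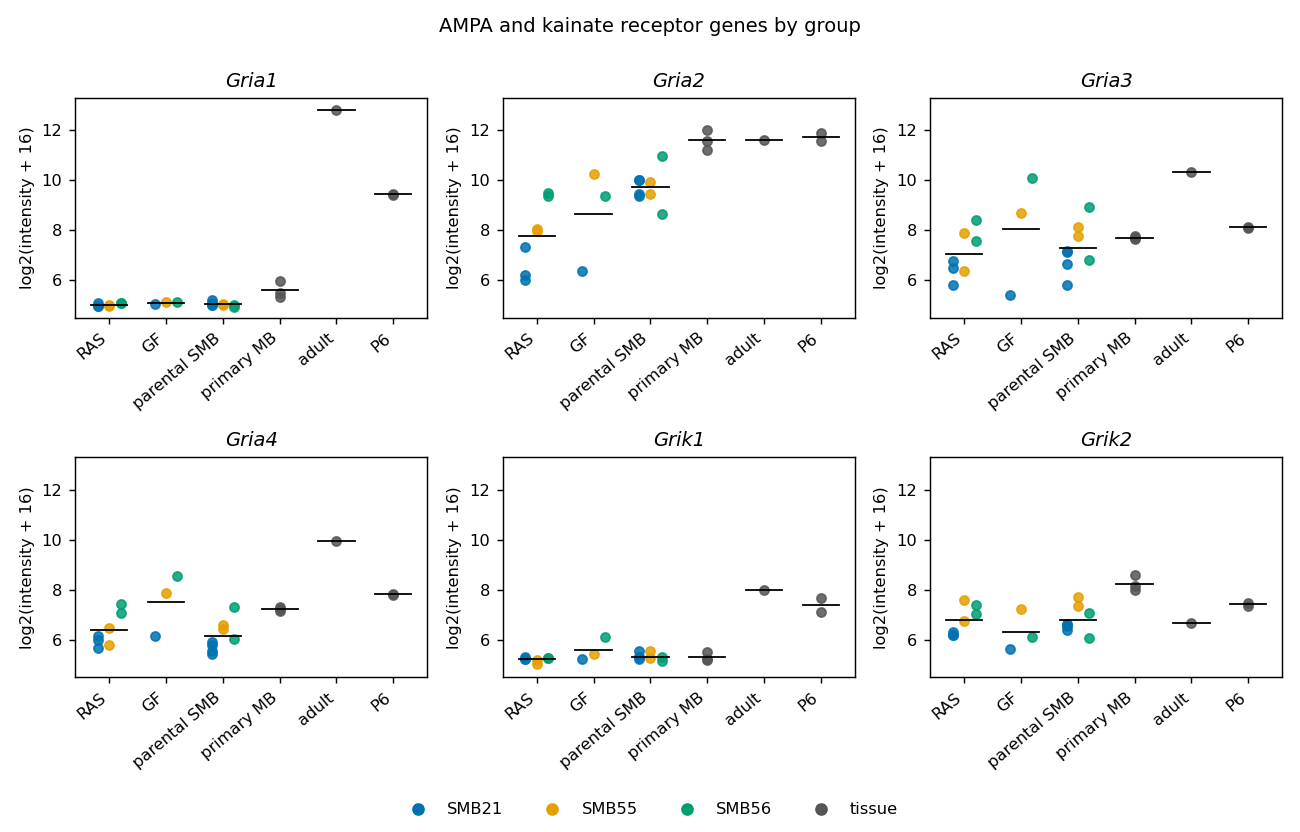
Level as log2(intensity + 16) (vertical axis) of Gria1 to Gria4, Grik1 and Grik2 on every array, by group, with colours for the SMB lines, grey for tissue and a bar at the mean over arrays. Grik1 lies at 5.20 to 5.52 in MB and above 7 in adult and P6 tissue, and SMB21 RAS and GF arrays have the lowest Gria2 values.

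The 4 NMDA receptor genes and Grm8, a presynaptic glutamate receptor that acts through a G protein, stayed below the median gene on all arrays. Grin3b, whose subunit binds glycine, was 6.76, 6.70 and 6.59 in primary MB, against 6.25 and 6.27 in P6 cerebellum and 6.64 in adult. The groups did not overlap at P6 (0.43, SE 0.09, adjusted p = 0.0341), but the call was lost without any one of the 3 tumors, without P6 replicate 1 or 2 (adjusted p = 0.195) and without line SMB56. Parental SMB cells had 6.52 to 6.94, a difference of 0.40 from P6 (SE 0.09, adjusted p = 0.0222). Without P6 replicate 1 (adjusted p = 0.131) or 2 (adjusted p = 0.117) that call was lost too. Grin2d was 6.21 to 6.60 in parental SMB cells, against 6.03, 6.21 and 6.08 in MB (0.31, SE 0.09, adjusted p = 0.0436). That small difference became 0.10 when arrays were centred on their medians and lost its call without P6 replicate 1 or 2, MB replicate 1 or 3 or any one of the lines (highest adjusted p = 0.117). Grm8 was 5.87, 6.26 and 6.08 in MB, against 6.98 in adult, a difference of -0.92 (SE 0.19, adjusted p = 0.00993). Adult was also 0.81 above the P6 values of 6.34 and 6.02 (SE 0.20, adjusted p = 0.0311), a call lost without MB replicate 3, P6 replicate 2 or line SMB56 (highest adjusted p = 0.133).

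The GABA-A genes Gabra2 and Gabrg1, which lie next to each other, were both lower in primary MB than in P6 cerebellum. Gabrg1 encodes a gamma subunit. It was 5.38, 5.47 and 5.38 in MB, against 10.11 in adult and 9.06 and 9.44 at P6. The tumors lay far below both (MB minus P6 -3.84, SE 0.47, adjusted p = 0.00367; MB minus adult -4.70, SE 0.60, adjusted p = 0.00137). A further Gabrg1 probe set gave -2.27 for MB against P6 (SE 0.23, adjusted p = 0.00197). Gabrg1 was 5.16 to 7.49 in parental SMB cells, with line means of 5.56 (SMB21), 7.32 (SMB55) and 5.91 (SMB56), and both SMB55 arrays (7.15 and 7.49), SMB21 replicate 1 (6.58) and SMB56 replicate 2 (6.66) stood over 1 unit above the tumors. Its difference of 0.85 from MB was not called (SE 0.42, adjusted p = 0.195), and it was below P6 by a difference of -2.99 (SE 0.47, adjusted p = 0.00553, and 0.0562 without P6 replicate 2).

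Gabra2 encodes an alpha subunit, part of the site that binds GABA and benzodiazepines. It was 5.88, 6.19 and 6.08 in primary MB, against 7.92 in adult and 7.02 and 6.75 at P6. The tumors lay below both, by a difference of -0.83 from P6 (SE 0.18, adjusted p = 0.0321) and of -1.87 from adult (SE 0.23, adjusted p = 0.00116). The first of these calls was lost without MB replicate 1 or 3, P6 replicate 1 or 2, or line SMB56, with adjusted p-values up to 0.208. Adult was 1.03 above P6 (SE 0.24, adjusted p = 0.0267), which was lost without P6 replicate 1 (adjusted p = 0.0641) or 2 (adjusted p = 0.122). Parental SMB cells had a lowest value of 5.25, a median of 5.47 and a highest of 6.20, a difference of -1.31 from P6 (SE 0.18, adjusted p = 0.00339).

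Gabrb1 encodes a beta subunit, which takes part in binding GABA. Its level was 9.63, 7.04 and 6.30 in primary MB, against 11.57 in adult and 9.84 and 9.72 at P6. MB replicate 1, which held the most Gabra6, stood near the P6 arrays. The difference of -3.91 from adult (SE 1.11, adjusted p = 0.0358) was -4.90 without that tumor (adjusted p = 0.00052), and it lost its call without MB replicate 2 or 3, P6 replicate 1 or 2, or line SMB21 or SMB56 (highest adjusted p = 0.0723). Against P6 the difference was -2.12 (SE 0.88, adjusted p = 0.168 with limma), and it was called without MB replicate 1. Parental SMB cells ranged from 5.84 to 7.04 (difference from P6 -3.46, SE 0.88, adjusted p = 0.0291), a call lost without P6 replicate 1 or 2 or line SMB21 or SMB56 (highest adjusted p = 0.148). Gabrb2, which encodes another beta subunit, was at 6.30 in adult and 5.40 to 5.59 in MB and P6 tissue, so that adult was 0.89 above P6 (SE 0.12, adjusted p = 0.00352). Gabrp, 6.78, 6.93 and 6.85 in MB against 6.522 and 6.4 at P6, was called by a narrow margin (0.39, SE 0.10, adjusted p = 0.0498). It lost its call without any one of the P6 arrays or tumors, of lines SMB55 and SMB56 or of parental replicate 2 of either line (highest adjusted p = 0.313), and its other probe set gave -0.01.

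Gabbr1 encodes the GABA-binding subunit of the GABA-B receptor. It was 10.67, 10.13 and 9.92 in primary MB, against 12.49 in adult and 10.70 and 10.88 at P6. The tumors lay below the adult array (-2.25, SE 0.34, adjusted p = 0.00271), while their difference from P6 was not called (-0.55, SE 0.27, adjusted p = 0.226). Adult was 1.70 above P6 (SE 0.36, adjusted p = 0.0178), a call lost without P6 replicate 1 (adjusted p = 0.0862) or 2 (adjusted p = 0.0644) or SMB56 parental replicate 2 (adjusted p = 0.0677). In parental SMB cells it was 7.77 to 9.62, all below MB, at a difference of -1.59 (SE 0.24, adjusted p = 0.0063) and of -2.14 from P6 (SE 0.27, adjusted p = 0.00219). Of its 3 other probe sets, 2 fell in parental SMB cells against MB (-3.00 and -0.89) and one was at -0.09, not called.

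Glrb encodes the beta subunit of the glycine receptor, which ties the receptor to the scaffold gephyrin. Its level was 10.75, 9.79 and 10.27 in primary MB, against 12.24 in adult and 10.41 and 10.38 at P6. MB and P6 overlapped (-0.13, SE 0.33, adjusted p = 0.831), and both lay below adult (MB minus adult -1.97, SE 0.41, adjusted p = 0.011; adult minus P6 1.85, SE 0.44, adjusted p = 0.0274). The adult and P6 comparison lost its call without MB replicate 3 (adjusted p = 0.05), without SMB56 parental replicate 2 (adjusted p = 0.0565) and without P6 replicate 1 or 2 (highest adjusted p = 0.108). Parental SMB cells had line means of 8.92, 9.46 and 8.61, below MB by a difference of -1.28 (SE 0.29, adjusted p = 0.0242) and below P6 by -1.40 (SE 0.33, adjusted p = 0.0219). The first was lost without MB replicate 1 or 3, P6 replicate 1 or 2, or line SMB21 or SMB56 (highest adjusted p = 0.0709), and the second without P6 replicate 1 or 2 or line SMB21 or SMB56 (highest adjusted p = 0.122). Glra1, Glra3 and Glra4, which encode the alpha subunits that bind glycine, kept between 4.99 and 5.81 on all 24 arrays and were called nowhere.

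**Figure D4:**
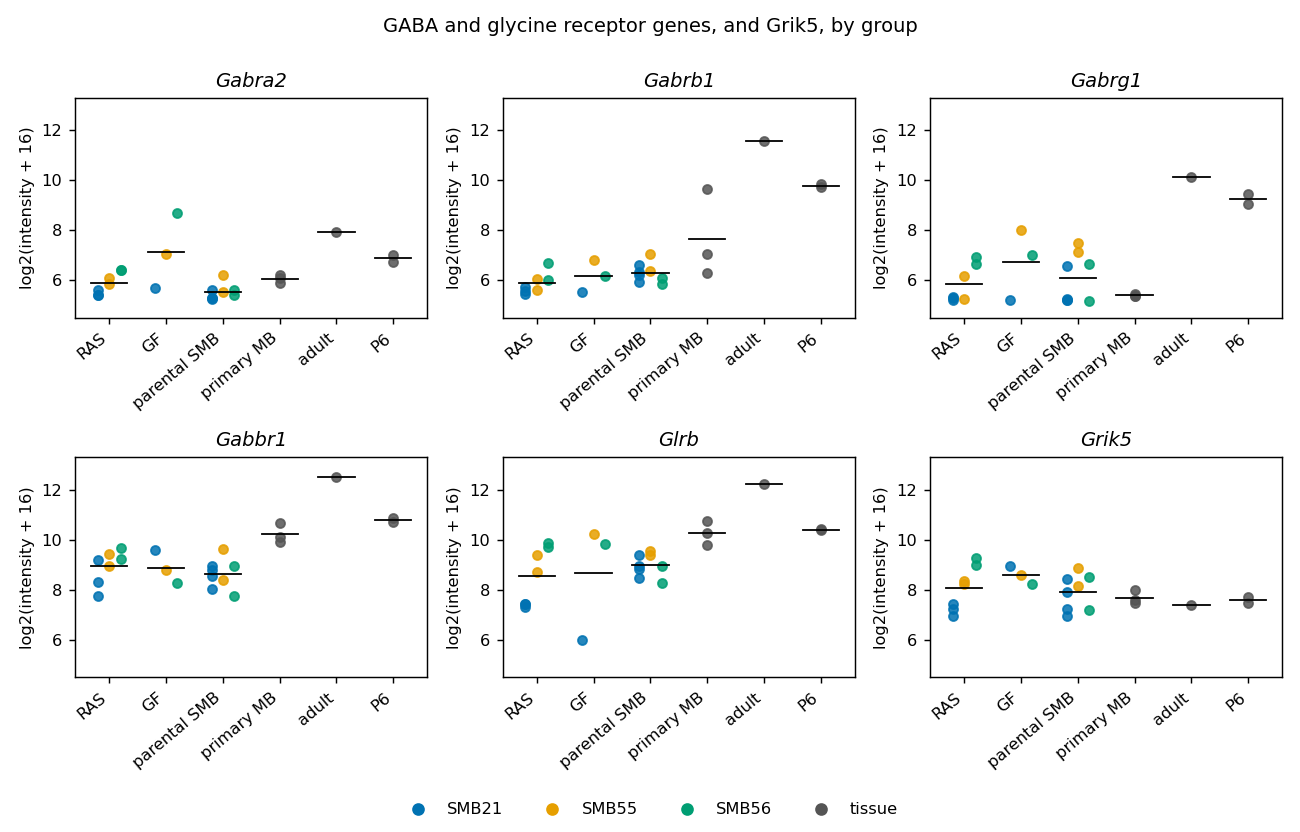
Level as log2(intensity + 16) (vertical axis) of Gabra2, Gabrb1, Gabrg1, Gabbr1, Glrb and Grik5 on every array, by group, with colours for the SMB lines, grey for tissue and a bar at the mean over arrays. Gabrg1 lies at 5.38 to 5.47 in MB, far below adult and P6 tissue, and Glrb splits by line in the RAS and GF groups.

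Gria2 was lower in RAS transformed cells than in parental cells, and Gabra2 and Gria4 were higher in GF cells. Of the 29 genes, 0 were higher and 3 lower in RAS than in parental SMB cells, 10.3% against a background of 32.1% of all genes (14.1% higher and 17.9% lower). The median difference was -0.09 over the 29 genes and -0.05 over all genes. In GF against parental cells 2 were higher and 0 lower, 6.9% against 8.95% (3.99% higher and 4.96% lower), with medians of 0.08 and -0.01. In RAS against GF cells 0 were higher and 4 lower, 13.8% against 11.2% (5.7% higher and 5.45% lower), with medians of -0.14 and -0.04. The GF comparisons rest on 1 array per line.

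Gria2 was 6.22, 7.35 and 6.02 in SMB21 RAS cells, against 10.01, 9.36, 10.03 and 9.44 in SMB21 parental cells. It was 7.97 and 8.03 in SMB55 RAS cells, against 9.46 and 9.93 in SMB55 parental cells, and 9.38 and 9.48 in SMB56 RAS cells, against 8.64 and 10.98 in SMB56 parental cells. RAS and parental arrays thus did not overlap in SMB21 and SMB55, and overlapped in SMB56. Over the lines RAS minus parental was -2.05 (SE 0.50, adjusted p = 0.00577), and leaving out any one of the 18 cultures kept it called (-2.43 to -1.87, highest adjusted p = 0.0156). Without SMB56 parental replicate 2 it was -1.99 (adjusted p = 0.012) and without SMB55 parental replicate 2 it was -2.11 (adjusted p = 0.00912). The other Gria2 probe set gave -1.45 (SE 0.27, adjusted p = 0.000854).

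By line the RAS difference of Gria2 was -3.18 in SMB21 (SE 0.48, adjusted p = 0.00102), -1.70 in SMB55 (SE 0.63, adjusted p = 0.0781) and -0.38 in SMB56 (SE 0.63, adjusted p = 0.746). The test that the RAS response differs between lines did not pass for it (adjusted p = 0.132). In SMB21 GF cells Gria2 was 6.39, below the 4 parental arrays (-3.32, SE 0.70, adjusted p = 0.0162), while GF was at 10.25 in SMB55 and 9.37 in SMB56 (differences 0.55 and -0.44, neither called). Granule neuron precursor markers (6 genes) summed to 2426 to 12900 in RAS, against 14960 to 27460 in parental cells, with 5 of 6 lower. By line the RAS sums were 6451 to 12900 in SMB21, 2594 to 3413 in SMB55 and 2426 to 4076 in SMB56. Of the 6 markers, 3 were lower than in parental cells in SMB21, 4 in SMB55 and 6 in SMB56. The part of these markers in the Gria2 difference was not tested.

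Glrb, which adjoins Gria2, went opposite ways in the lines. It was 7.29, 7.45 and 7.44 in SMB21 RAS cells, against 8.95, 8.48, 9.39 and 8.84 in SMB21 parental cells. In SMB56 it was 9.88 and 9.73 in RAS cells, against 8.27 and 8.95 in parental cells. SMB21 RAS lay below and SMB56 RAS above every parental array of its line, at -1.52 (SE 0.23, adjusted p = 0.00106) and 1.20 (SE 0.30, adjusted p = 0.0289). SMB55 had 9.41 and 8.72 in RAS against 9.38 and 9.54 in parental cells (-0.40, SE 0.30, adjusted p = 0.414). The test that the response differs by line passed (F = 25.6, adjusted p = 0.0105), for 1 of 29 genes, 3.45% against a background of 3.45% of all genes. Without SMB56 parental replicate 2 that test gave F = 29.5 for Glrb (adjusted p = 0.0047), and Gria2, Gabrg1 and Grik2 passed too, 4 of 29 where 9.92% of all genes passed.

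In GF cells Glrb was 5.98 in SMB21, 10.24 in SMB55 and 9.84 in SMB56. SMB21 GF was the lowest of all 24 arrays, and the other GF arrays were above all parental arrays of their line. The GF difference from parental was -2.94 in SMB21 (SE 0.34, adjusted p = 0.000663), 0.78 in SMB55 (SE 0.37, adjusted p = 0.552) and 1.24 in SMB56 (SE 0.37, adjusted p = 0.0814). The GF response differed by line for Glrb (F = 42.9, adjusted p = 0.00423) and Gabra2 (F = 36.0, adjusted p = 0.0068), 2 of 29 genes or 6.9% against a background of 1.4%. Oligodendrocyte lineage markers summed to 881.3 to 6934 in SMB21 RAS and 36190 to 39290 in SMB56 RAS cells, against 3361 to 11990 and 2400 to 33160 in parental cells of SMB21 and SMB56. In GF cells they summed to 12760 in SMB21, to 26070 in SMB55 (parental 14470 to 32580) and to 19390 in SMB56. Single markers went different ways in SMB21 GF. Olig1 was 13.49, against 5.72 to 13.35 in SMB21 parental cells, and Pdgfra was 7.71 against 9.99 to 12.48. Of the 9 markers, 1 was called higher and 0 lower in SMB21 GF against parental cells. In RAS against parental cells 0 of the 9 were called in SMB21, SMB55 or SMB56, and in GF cells 0 in SMB55 or SMB56. Their part in the Glrb values was not tested.

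Gabra2 was 5.71 in SMB21 GF, 7.07 in SMB55 GF and 8.68 in SMB56 GF cells, against 5.25 to 6.20 in all 8 parental arrays. SMB55 GF and SMB56 GF lay above each parental array. Over the lines GF minus parental was 1.498 (SE 0.33, adjusted p = 0.0116), and by line 0.35 (adjusted p = 0.433), 1.20 (adjusted p = 0.0651) and 3.16 (adjusted p = 7.85e-05) in SMB21, SMB55 and SMB56. Without the SMB56 GF array it was 0.85 (adjusted p = 0.0723), without SMB56 parental replicate 2 it was 1.36 (adjusted p = 0.0197) and without SMB55 parental replicate 2 it was 1.59 (adjusted p = 0.0106). RAS cells had 5.42 to 6.41 with a median of 5.86, which was 1.19 below GF (difference -1.19, SE 0.33, adjusted p = 0.0338). That call was lost without SMB55 GF (adjusted p = 0.0924), SMB56 GF (adjusted p = 0.206), SMB21 RAS replicate 1, either SMB55 RAS array or SMB56 RAS replicate 1 (the last 4 between 0.0503 and 0.0612). In SMB56, RAS was at 6.41 on both arrays, against 5.61 and 5.41 in parental cells (0.90, SE 0.20, adjusted p = 0.0186). Gabrg1, next to Gabra2, was 5.19 in SMB21 GF, 8.01 in SMB55 GF and 7.03 in SMB56 GF, against 5.16 to 7.49 in parental cells, and its GF difference of 0.45 was not called (SE 0.48, adjusted p = 0.652).

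Gria4 was 6.14, 7.88 and 8.55 in SMB21, SMB55 and SMB56 GF cells, against 5.45 to 5.91, 6.43 and 6.59, and 6.04 and 7.33 in parental cells of those lines. Each GF array was above the parental arrays of its own line. The difference over the lines was 1.21 (SE 0.30, adjusted p = 0.0199) and lost its call without SMB55 GF (adjusted p = 0.0921) or SMB56 GF (adjusted p = 0.139). It was 1.28 without SMB56 parental replicate 2 (adjusted p = 0.022) and 1.27 without SMB55 parental replicate 2 (adjusted p = 0.0223). RAS cells had 5.69 to 7.43, a difference of -1.05 from GF (SE 0.30, adjusted p = 0.0378). That call was lost without SMB55 GF (adjusted p = 0.192), SMB56 GF (adjusted p = 0.172), SMB21 parental replicate 4, either SMB55 RAS array or SMB56 RAS replicate 1 (the last 4 between 0.0503 and 0.0651). With the replicate number as a block, GF against parental cells had 0 of the 29 genes called (Gabra2 adjusted p = 0.0925, Gria4 adjusted p = 0.0814 with limma), and RAS against GF cells had 0. Of all genes, 1.96% and 1.3% were called in these 2 comparisons under the block. Astrocyte markers summed to 16110 to 28480 in GF cells, against 2403 to 22290 in parental cells, with 1 of 9 higher (Slc1a3, 11.51 to 12.85 in GF against 8.59 to 10.53 in parental cells) and 0 lower. Aldoc was 13.32 to 14.25 in GF against 7.47 to 13.94 in parental cells, Aqp4 4.98 to 5.26 against 4.95 to 6.63 and Aldh1l1 5.73 to 5.87 against 5.44 to 5.93. Their part in the Gabra2 and Gria4 values was not tested.

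**Figure D5:**
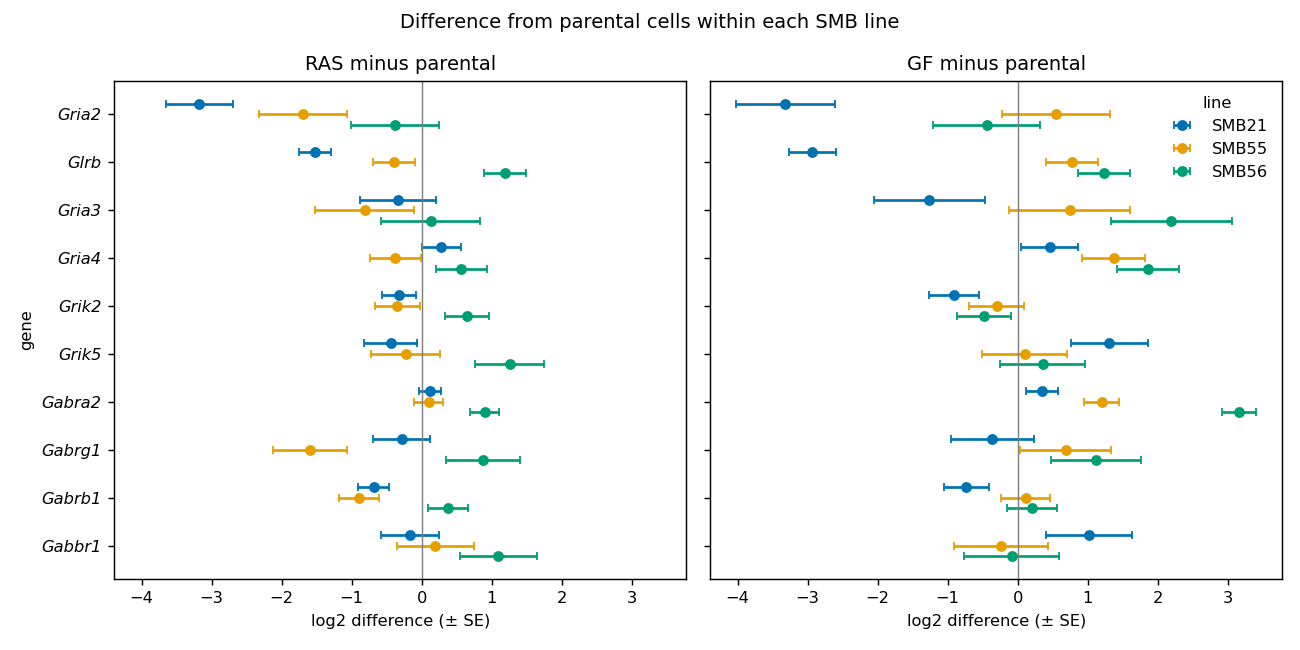
Log2 difference from parental cells of the same line (horizontal axis, point with SE) in RAS (left) and GF cells (right) for 10 receptor genes, with colours for the 3 lines. Glrb lies at -1.52 in SMB21 RAS and 1.20 in SMB56 RAS, and Gabra2 reaches 3.16 in SMB56 GF.

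The remaining calls in the cultures were small. Grin2a, an NMDA receptor subunit gene, was 5.20 to 5.41 in RAS, against 5.27 to 5.73 in parental cells (-0.18, SE 0.06, adjusted p = 0.0259). Gabrr2, which encodes a rho subunit, was 5.34 to 5.63 in RAS, 5.69 to 6.01 in GF and 5.57 to 5.75 in parental cells. RAS was 0.16 below parental (difference -0.16, SE 0.05, adjusted p = 0.0317) and 0.35 below GF (difference -0.35, SE 0.07, adjusted p = 0.00752). Against parental cells Grin2a lost its call without SMB55 parental replicate 1, SMB21 RAS replicate 2 or SMB56 RAS replicate 2 (highest adjusted p = 0.0535). Gabrr2 lost it without either SMB55 parental array, either SMB55 RAS array, SMB56 parental replicate 1, SMB21 parental replicate 2 or SMB21 RAS replicate 1 or 2 (highest adjusted p = 0.0659). Without SMB21 parental replicate 1 the count went to 6, adding Gabrg3, Grik3 and Grin2b, with 31.7% of all genes called. Grm8 was 5.53 to 5.76 in RAS, against 5.78, 5.96 and 6.07 in GF cells (-0.29, SE 0.08, adjusted p = 0.0239; 0.123 without SMB55 GF and 0.112 without SMB56 GF). These genes stayed below the median gene on every array.

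Within single lines few receptor genes were called beyond those above. RAS against parental cells had 2 lower in SMB21 (19.4% of all genes, 9.1% higher and 10.3% lower), 1 lower in SMB55 (21.5% of all genes, 10.6% higher and 10.9% lower) and 2 higher in SMB56 (12% of all genes, 6.14% higher and 5.9% lower). In SMB55 that was Gabrb1, at 6.04 and 5.61 in RAS against 6.39 and 7.04 in parental cells (-0.89, SE 0.29, adjusted p = 0.0474). GF against parental cells had 2 lower in SMB21 (8.21% of all genes, 4.03% higher and 4.18% lower), 0 in SMB55 (0.686% of all genes, 0.484% higher and 0.202% lower; 3 members at an unadjusted p under 0.05 with limma) and 3 higher in SMB56 (5.43% of all genes, 3.18% higher and 2.25% lower). The SMB56 calls were Gabra2, Gria4 (1.87, SE 0.44, adjusted p = 0.0339) and Grik1, at 6.13 in GF against 5.30 and 5.15 in parental cells (0.91, SE 0.16, adjusted p = 0.00846). For the counts at an unadjusted p in single lines and between parental lines, the share of all genes was not counted. Parental lines differed in 0 members by the F test with limma (5.08% of all genes), with 5 at an unadjusted p under 0.05. Without SMB56 parental replicate 1 the count was 3 (Gabrg1, Gria4 and Grik2; 7.43% of all genes), without SMB56 parental replicate 2 it was 2 (Gabrg1 and Grik2; 9.82%) and without SMB21 parental replicate 1 it was 1 (Gabrg1; 10.3%).

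Genes that serve these receptors were taken from a list of 54 auxiliary subunits, scaffolds, transporters and enzymes, of which 40 were measured. In primary MB against P6 cerebellum 13 of 40 were called (all genes 11%), 1 higher and 12 lower, with a median of -0.30 against 0.05 over all genes. Gad1, an enzyme that makes GABA, was 5.70, 5.99 and 5.69 in MB against 11.80 and 11.55 at P6, and fell by 5.88 (SE 0.31, adjusted p = 8.54e-05). Gad2, the other such enzyme, was at -1.48 (SE 0.09, adjusted p = 0.000146) and the GABA transporter Slc6a13 at -3.57 (SE 0.10, adjusted p = 4.77e-06). Against adult tissue 17 were called, 2 higher and 15 lower (all genes 30.9%), with Gad1 at -7.99 (SE 0.40), Gad2 at -4.38 and Slc6a13 at -2.72. In adult against P6 cerebellum 10 rose and 4 fell (all genes 19.2%). Gad2 was higher by 2.90, the scaffold Homer3 by 2.48 and the glutamate transporter Slc1a2 by 2.58.

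Parental SMB cells had 6 of the 40 genes higher and 5 lower than MB, where 12.4% of all genes were higher and 8.19% lower. Slc17a6, which loads glutamate into vesicles, was 5.48 to 6.55 in parental cells, against 11.59, 10.10 and 11.49 in MB, and fell by 5.13 (SE 0.37, adjusted p = 0.000535). The glycine transporter Slc6a9 rose by 2.08 and the scaffold Dlg2 fell by 0.74. Against P6 cerebellum 2 were higher and 14 lower (all genes 14.6% and 11%), with Gad1 at -5.71, Gad2 at -1.69 and Slc6a13 at -3.56. In GF against parental cells 4 of 40 rose and 1 fell, where 3.99% of all genes rose and 4.96% fell. Slc1a3, a glial glutamate transporter, rose by 2.39 (SE 0.52), the AMPA receptor auxiliary gene Cacng5 by 2.12 (SE 0.51) and the glutamate-metabolising enzyme Glud1 by 0.86 (SE 0.19).

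In RAS against parental cells 3 of the 40 genes rose and 9 fell, where 14.1% of all genes were higher and 17.9% lower. Gad1 was 11.23, 8.17 and 9.55 in SMB21 RAS cells, against 5.47, 5.14, 5.33 and 6.28 in SMB21 parental cells, and it rose by 4.10 over the lines (SE 0.44, adjusted p = 1.28e-05), as in each line (4.09, 3.36 and 4.80 in SMB21, SMB55 and SMB56). Gad2 was at 5.30 to 5.44 in RAS cells. The GABA-degrading enzyme Abat fell by 1.81 (SE 0.21) and the scaffold Homer2 was at -2.81 (SE 0.42). In RAS against GF cells 1 rose and 6 fell (all genes 5.7% and 5.45%), with Cacng5 at -2.48, the amino acid transporter Slc1a4 at -2.04 and Glud1 at -1.23. Gad1 is also one of the interneuron markers, whose sum was 404.2 to 2519 in RAS, against 151.6 to 301 in parental cells, with 1 of 4 higher.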

How the data were processed

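RNA of 24 mouse samples was hybridised to Affymetrix arrays, per the labels' protocols. The deposited values are linear intensities of probe sets, which the authors had made comparable in scale (array medians 188.8 to 245.1); their summary method and normalisation are not given in the sources used. The number of arrays limits precision.

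Of 22690 probe sets, 20393 have 1 symbol, 691 several and 1606 none; the brightest over the 24 arrays was kept for each of 12394 genes. log2(intensity + 16) was fitted with limma 3.58.1 in R 4.3.3 (lmFit, eBayes, two-sided, Benjamini-Hochberg over all genes, adjusted p under 0.05). Tissues were fitted as 4 groups, parental SMB as 3 line means; the 18 cultures with treatment and line as terms, so p-values hold for these lines; and 9 groups of line and treatment gave the tests by line. Members and lists were chosen with earlier results of these data known. The 29 symbols matched the GRCm38.p6 table. Named genes were those called in GF or RAS against parental cells or by the line tests, the 6 largest called tissue differences, the highest group means and up to 3 partner genes per comparison; Gabrb2, Grm8 and the single-line calls were added after their values were seen. Scripts were tested on simulated data.

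Replicate numbers did not pair RAS with parental cells (correlations of deviations -0.154 to -0.02) or MB with P6 (-0.028 and 0.005). GF array 1 correlated with parental array 1 of its line at 0.216, 0.339 and 0.104, with the line left in, so the numbers were taken not to pair beyond the line; the block is given beside the GF results. Alternatives were other normalizations, pseudocounts, filters, probe set rules, sample sets, a block and leaving out arrays.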

Additional observations from a re-analysis of the deposited data

Results flagged for a closer look

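In SMB21 parental cells, where 4 arrays allow the test, 3 of 29 receptor genes had an array far from the others, by Dixon's test of its gap over the group's range. All 3 were SMB21 parental replicate 1: Gabrg1 at 6.58 against 5.20 to 5.24 (ratio 0.970), Gabra2 at 5.63 against 5.25 to 5.28 (ratio 0.919) and Grin2b at 5.99 against 6.48 to 6.52 (ratio 0.921). Chance gives about 1 such gene in 20, and genes on 1 array are not independent.

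The response to RAS differed between lines for Glrb (adjusted p = 0.0105), which was lower than in parental cells in SMB21 and higher in SMB56. The response to growth factors differed between lines for Glrb (adjusted p = 0.00423) and Gabra2 (adjusted p = 0.0068), with 1 GF array per line.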

How the results depend on the processing

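No result changed direction under any alternative. Of single-gene results under alternatives, 956 stayed on their side of the threshold and 144 lost their call. Numbers below count called members. Centring arrays on their medians gave 13 for parental SMB against MB, and fitting only those groups 3. With the dimmest genes filtered out the number was 2 for MB against P6, 5 for adult against P6, and 1 each for GF and RAS against parental, RAS against GF and the GF response by line. With P6 and adult pooled, MB against normal tissue had 4 (8.68%). With only the compared treatments, GF against parental (8.83%) and RAS against GF (7.25%) had 1 each. With the replicate number as a block, MB against P6 had 3 (3.35%) and GF against parental 0 (1.96%). Under that block RAS against parental had 1 (Gria2, adjusted p = 0.0309 with limma, where 25.6% were called) and RAS against GF 0 (1.3%). The cause of these changes was not tested.

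Leaving out 1 array or line at a time, with parental replicate 2 of SMB55 and SMB56 added to the tissue fits after seeing the data, gave 3 to 8 for MB against P6, 10 to 12 for MB against adult, 3 to 9 for adult against P6, 3 to 7 for parental SMB against MB, 5 to 12 for parental SMB against P6, 0 to 3 for GF and 1 to 6 for RAS against parental, 1 to 6 for RAS against GF, 1 to 4 and 2 to 3 for the RAS and GF responses by line, and 0 to 3 for the parental lines. The share of all genes called changed from fit to fit as well. In MB against P6 it was 8.88% without MB replicate 1 and 6.24% without MB replicate 3. The adult array could not be left out of its own comparisons. The 18 dim genes limit what could be detected.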
